A study of Mus musculus with 6 samples.

Results

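The 10 genes described here are core genes of Notch signalling: the receptors Notch1, Notch2 and Notch3, the ligands Dll1, Dll3 and Jag1, and the transcription factor genes Hes1, Hes5, Hes6 and Hey1. Each was represented by the probe sets whose gene symbol was exactly that name, with no filter on brightness. This gave 10 probe sets, 1 per gene, out of 21789 probe sets with 1 symbol for 19938 genes. Of probe sets that share a symbol with another gene, 0 carried a member's name.

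RNA came from 6 mouse embryo heads at E10.5, of background strain C57Bl6, each read on 1 Affymetrix array. The 3 heads labelled wild type (WT) and the 3 labelled Tasp1 knockout (KO, Tasp1-/-) came from intercrosses of Tasp1+/- mice, and the tissue was the prosencephalon and mesencephalon. No embryo received a treatment according to the labels, and they do not describe how the knockout allele was made. Taspase1, the product of Tasp1, is a site-specific protease whose known substrates include MLL-type histone methyltransferases and the precursor of the transcription factor TFIIA. The knockout was compared with wild type to see which head transcripts depend on the gene.

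In Notch signalling, a ligand on one cell binds a receptor on its neighbour, the receptor is cut by ADAM proteases and gamma-secretase, and its intracellular part enters the nucleus and joins the DNA-binding protein RBPJ. The complex switches on Hes and Hey genes, whose products repress proneural genes. In the embryonic brain, dividing progenitors keep Hes1 and Hes5 on and stay undifferentiated, while neighbouring cells that start neurogenesis express Dll1, Dll3 and, under proneural control, Hes6.

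RBPJ is known to bind the letters GTGGGAA. Matches in the Hes and Hey promoter windows are shown because the receptor acts on its targets through RBPJ. The 250 bases before the annotated start were searched for GTGGGAA on both strands in the RefSeq promoter windows of build GRCm38.p6. Of all 32851 windows, 1779 (5.42%) held it. The windows cover 8 of the 10 members, Hes1 and Hey1 not among them, and of the members' 10 windows that of Hes5 alone held the motif, in 2 places. Of 5 windows for 4 Hes and Hey genes (Hes5, Hes6, Hes7 and Hey2), 3 held it. The stretches below are written on the strand that reads GTGGGAA, which is in capitals.
Hes5, nearer site: ggccgccgagtGTGGGAAcggccgcggcg
Hes5, farther site: atgtccgggctGTGGGAAcgcgctcgccc
Hey2: ttggcagaggcGTGGGAAtgccaccgcgc
Hes7: tagccccaaatGTGGGAAgtgaggggagg
The Hes5 stretches lie at chr4:154960829-154960857 (the gene's strand) and chr4:154960686-154960714 (the opposite strand), with the motif beginning 83 and 226 bases before the start. Those of Hey2 and Hes7, both opposite to the gene's strand, lie at chr10:30842973-30843001 and chr11:69120262-69120290, 207 and 180 bases before it. A match of letters is a description and not a bound site. The E box CACGTG, a sequence that Hey proteins are known to bind, was in 6.02% of all windows and in 0 of the members' windows.

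The deposited values are log2 signals, and every difference below is the mean of the KO-labelled heads minus that of the WT-labelled heads. Signals of different probe sets are not set against each other, because a probe set's brightness also depends on its probes. In whole tissue, fewer cells of a type and less RNA per cell cannot be told apart. Differences were tested with limma over all 21789 probe sets, and adjusted p-values are Benjamini-Hochberg values over all of them, with a threshold of 0.05. With 3 heads against 3, an exact permutation test cannot give a two-sided p below 0.1. Nothing in the labels says that the embryos came from separate litters.

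Array medians lay between 7.35 and 7.45. WT 1 lay farthest from the other heads on the first principal component. Only WT 2 had the female pattern of high Xist (12.3, and 4.90 to 5.24 elsewhere) with low Y-linked genes, so the groups were not balanced for sex. The Tasp1 probe set read 8.10 to 8.49 in WT-labelled and 8.50 to 8.63 in KO-labelled heads. It was thus not lower in the KO-labelled heads, and with no description of the allele it does not check the labels. Of 8 neural progenitor markers tested, Sox2, Otx2 and Fabp7 read 11.27 or more in every head, and the dimmest, Sox3, read 8.97 to 9.07. The 4 markers of presomitic mesoderm, the trunk tissue where Dll3 and Hes7 are best known, had a mean signal of 6.72 to 6.83 in WT-labelled and 6.64 to 6.81 in KO-labelled heads. With no detection call in the table, absence of a transcript was not judged.

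Signals of the receptors, ligands and Hes genes in KO-labelled heads were 0.92 to 1.02 times those in WT-labelled heads, and Hey1 was the member with the largest difference, at 0.87 times. Of the 10 members, 0 passed the adjusted threshold, as did 0 of all probe sets (0% called; limma), and adjusted p-values of the members ran from 0.751 to 0.999. At an unadjusted limma p under 0.05 stood 1 member, Hey1, on the lower side, where 6.21% of all probe sets did so (3.89% lower, 2.32% higher). The median difference of the members was −0.027, beside −0.012 over all probe sets tested. Of the members, 4 were higher and 6 lower, beside 9515 higher and 12274 lower of all probe sets. The 95% confidence intervals of the 10 ratios all lay between 0.78 and 1.17. The interval of every member except Hey1 included no difference.

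**Figure D1:**
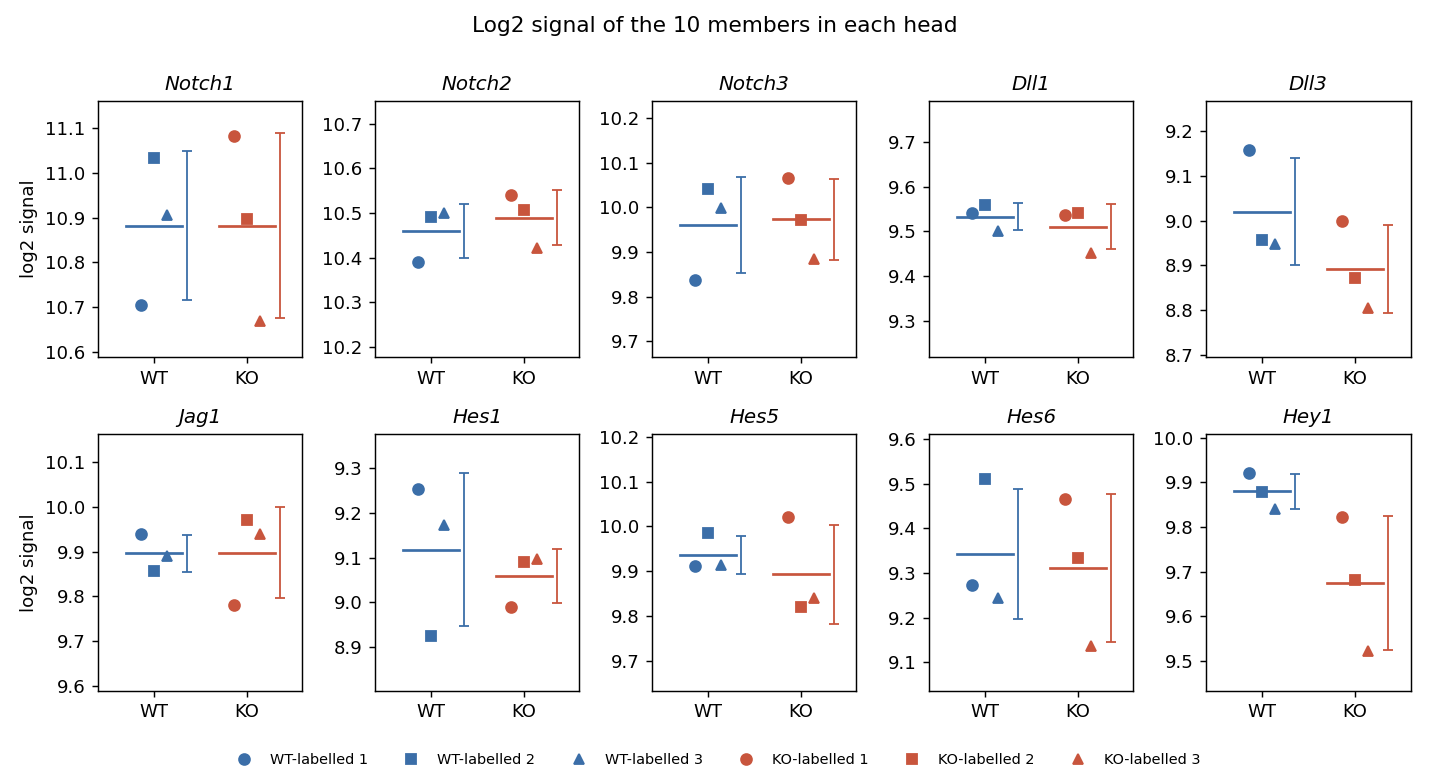
Log2 signal (vertical axis) of each of the 10 members in the 3 WT-labelled (blue) and 3 KO-labelled (red) heads, all panels spanning the same number of log2 units; the horizontal line is the group mean, the bar beside it ± 1 SD (n = 3), and the symbol shape the replicate number. The groups overlap in 9 panels, and in the Hey1 panel every KO-labelled head lies below every WT-labelled head.

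The receptor Notch1, which is broadly expressed in neural progenitors, read 10.70, 11.03 and 10.91 in WT-labelled heads 1 to 3 and 11.08, 10.90 and 10.67 in KO-labelled heads 1 to 3 (probe set 10481056). WT 1 and KO 3 were the low heads, and the groups overlapped almost entirely. Both group means were 10.88, with SDs of 0.17 and 0.21 (n = 3 per group), a ratio of 1.0 with a 95% confidence interval of 0.85 to 1.17 (limma adjusted p = 0.999). This was the widest interval among the receptors, and the heads of 1 group spanned 0.33 log2 units in WT-labelled and 0.41 in KO-labelled embryos.

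Notch2, a receptor that is also expressed in progenitors and in mesenchyme, read 10.39, 10.49 and 10.499 in WT-labelled heads and 10.54, 10.51 and 10.42 in KO-labelled heads (probe set 10494595). The lowest head was again WT 1 in its group and KO 3 in the other. The ratio was 1.02, with an interval of 0.94 to 1.11 (limma adjusted p = 0.953). Notch3, the receptor best known from smooth muscle cells and pericytes of vessels and also present in progenitors, read 9.84, 10.04 and 9.999 against 10.07, 9.97 and 9.88 (probe set 10449775). Its ratio was 1.01, with an interval of 0.91 to 1.12 (limma adjusted p = 0.985). All 3 receptors had differences between 0.0004 and 0.030 log2 units, smaller than the SD within either group (0.061 or more).

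Dll1, the ligand expressed by cells that begin to differentiate into neurons, read 9.54, 9.56 and 9.50 in WT-labelled heads and 9.54, 9.54 and 9.45 in KO-labelled heads (probe set 10448034). It had the smallest range of the members over the 6 heads, with SDs of 0.030 and 0.050 (n = 3 each), and the ratio was 0.98 (interval 0.91 to 1.07; limma adjusted p = 0.964).

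Dll3, a divergent ligand that acts inside the cell and inhibits signalling, had the largest difference of the ligands. It read 9.16, 8.96 and 8.95 in WT-labelled heads and 8.9996, 8.87 and 8.81 in KO-labelled heads (probe set 10561376). KO 1 lay above WT 2 and WT 3, so the groups overlapped. The difference was −0.13 (SE 0.077), a ratio of 0.92 with an interval of 0.81 to 1.03, and did not pass (limma adjusted p = 0.870). Without WT 1, the highest head, it was −0.059, and without KO 3 it was −0.084.

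Jag1, a ligand of the Serrate type, read 9.94, 9.86 and 9.89 in WT-labelled heads and 9.78, 9.97 and 9.94 in KO-labelled heads (probe set 10488060). KO 1 was the lowest of all heads and KO 2 the highest. The ratio was 1.0, with an interval of 0.91 to 1.10 (limma adjusted p = 0.998). Jag1 and Notch1 are the 2 members on chromosome 2, which also carries Tasp1, and 16 annotated genes lie between Jag1 and Tasp1 in the RefSeq gene table.

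**Figure D2:**
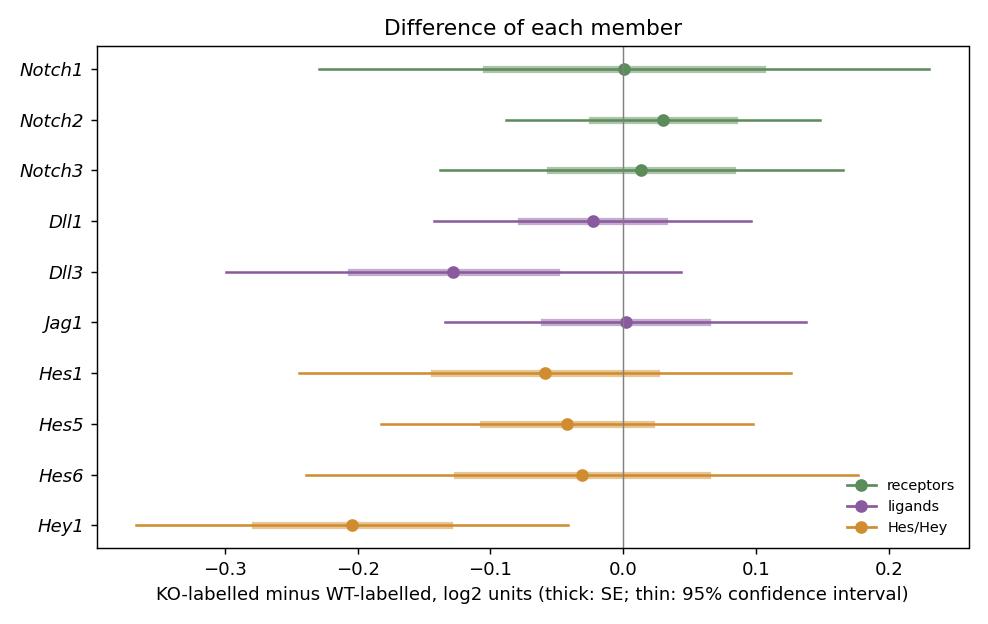
KO-labelled minus WT-labelled difference of each member (horizontal axis, log2 units), coloured by role; the thick bar is ± 1 SE and the thin bar the 95% confidence interval of the limma fit, with 3 heads a group. The intervals of 9 members cross 0, and that of Hey1 runs from −0.37 to −0.042.

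Hes1, a repressor whose expression keeps progenitors undifferentiated, read 9.25, 8.93 and 9.17 in WT-labelled heads and 8.99, 9.09 and 9.10 in KO-labelled heads (probe set 10434925). WT 2 was the lowest head and WT 1 the highest, so the WT-labelled heads enclosed all KO-labelled ones. The ratio was 0.96, with an interval of 0.84 to 1.09 (limma adjusted p = 0.934). Without WT 2, the head with the female pattern, the difference was −0.15, with an unadjusted limma p of 0.052, where the alternatives tried gave p-values from 0.052 to 0.911.

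Hes5, the target most closely tied to Notch activity in the neural tube and the member whose promoter window held the RBPJ letters printed above, read 9.91, 9.98 and 9.91 in WT-labelled heads. The KO-labelled heads read 10.02, 9.82 and 9.84 (probe set 10510950), so KO 1 was above and KO 2 and KO 3 were below all WT-labelled heads. The ratio was 0.97, with an interval of 0.88 to 1.07 (limma adjusted p = 0.940).

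Hes6, which inhibits HES1 and promotes neurogenesis rather than repressing it, read 9.27, 9.51 and 9.25 in WT-labelled heads and 9.46, 9.33 and 9.14 in KO-labelled heads (probe set 10356593). The highest head was WT 2 and the lowest KO 3. The ratio was 0.98, with an interval of 0.85 to 1.13 (limma adjusted p = 0.973).

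Hey1, a repressor expressed in progenitors and in arterial endothelium, was lower in all 3 KO-labelled heads than in every WT-labelled head. It read 9.92, 9.88 and 9.84 in WT-labelled heads and 9.82, 9.68 and 9.52 in KO-labelled heads (probe set 10497203). The gap was narrow, KO 1 lying just under WT 3, and KO 3 was the lowest. Group means were 9.88 ± 0.040 (SD, n = 3) and 9.68 ± 0.15 (SD, n = 3), which gives −0.20 (SE 0.073) and a ratio of 0.87 with an interval of 0.78 to 0.97. It did not pass adjustment over all probe sets (limma adjusted p = 0.751; unadjusted limma p 0.018), and the exact permutation p was 0.1, the lowest possible. Over all probe sets, 6.76% had every KO-labelled head below every WT-labelled head, and 4.15% the reverse. Without KO 3 the difference was −0.13, with an unadjusted limma p of 0.078, and without KO 1 it was −0.28, with an unadjusted limma p of 0.0026, so the size of the Hey1 difference depends on which KO-labelled heads are included.

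The other genes of the pathway came from lists of 61 genes, of which 57 were tested and 4 not analysed here, each gene by its brightest probe set. Of the 57, 0 passed the adjusted threshold (limma), and the median was −0.046. Of these genes 18 were higher and 39 lower, beside 9515 higher and 12274 lower of all probe sets. At an unadjusted limma p under 0.05, 3 were lower (Neurod1, Heyl and Dtx4) and 0 higher, beside 3.89% and 2.32% of all probe sets. Every KO-labelled head lay below every WT-labelled head for 5 genes and above for 3, beside 6.76% and 4.15% of all probe sets. Without KO 1, 7 genes were lower and 1 higher at that unadjusted threshold, beside 3.9% and 1.8% of all probe sets in that fit. Without WT 3 the counts were also 7 and 1, beside 5.4% and 3.53%.

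Heyl, the Hey gene best known from vascular smooth muscle, read 8.10, 8.25 and 7.96 in WT-labelled heads and 7.87, 7.71 and 7.84 in KO-labelled heads. No KO-labelled head reached a WT-labelled one. The ratio was 0.81, with an interval of 0.71 to 0.93, and it did not pass (limma adjusted p = 0.611; unadjusted limma p 0.0056). Hey2, another gene of this family, which is expressed in arteries, read 7.99, 7.93 and 8.01 against 7.85, 7.88 and 7.89. The groups were again apart, and the ratio was 0.93 (interval 0.84 to 1.03; limma adjusted p = 0.874).

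All 3 Hey genes were thus lower in each KO-labelled head than in any WT-labelled head, with 0 of them past the adjusted threshold, and 6.76% of all probe sets were separated in this direction, while the groups overlapped for all 6 Hes genes tested. The separation by family name was made after these values were seen, and a difference between the families was not tested. The Hes genes had differences from −0.14 (Hes2) to +0.11 (Hes3), with adjusted limma p-values from 0.868 to 0.976.

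The smooth muscle genes Acta2 and Tagln were lower in the same heads, although neither passed. Acta2, smooth muscle actin, read 9.16, 8.86 and 8.70 in WT-labelled heads and 8.30, 8.16 and 8.47 in KO-labelled heads, a ratio of 0.66 (limma adjusted p = 0.292). Tagln, which encodes an actin-binding protein, read 8.27, 7.79 and 7.91 against 7.61, 7.55 and 7.50, a ratio of 0.74 (limma adjusted p = 0.462). Of the 5 markers of pericytes and smooth muscle, 4 were lower and 1 higher, and the list's mean signal was 8.01 to 8.16 in WT-labelled and 7.78 to 7.88 in KO-labelled heads. The pericyte markers Pdgfrb and Cspg4 overlapped between the groups, while Rgs5 was separated in the opposite direction, at 5.79 to 5.81 in WT-labelled and 5.82 to 5.88 in KO-labelled heads. Of the 7 endothelial markers, 4 were higher and 3 lower, with a mean signal of 9.28 to 9.37 in WT-labelled and 9.27 to 9.31 in KO-labelled heads. Ramp2, a receptor partner in endothelium, was the one endothelial marker whose groups did not overlap, at 8.95 to 9.13 in WT-labelled and 8.69 to 8.73 in KO-labelled heads (ratio 0.80; limma adjusted p = 0.296). Separation in the same direction was not limited to vessel genes. Of 59 marker genes of 10 cell types and tissues, 9 were lower in every KO-labelled head and 2 higher, beside 6.76% and 4.15% of all probe sets, with 0 past the adjusted threshold (limma). The 9 included the neural crest gene Sox10 (ratio 0.77), the macrophage gene C1qb (0.81) and the embryonic globin gene Hbb-bh1 (0.86). Also among them were the epithelial genes Cldn6 (0.80) and Epcam (0.92) and the progenitor gene Prom1 (0.92). The 2 higher were Rgs5 and the epithelial gene Cdh1 (1.12). Single genes did not stand for their lists: of the 5 macrophage markers 3 were higher and 2 lower, and the globin genes Hba-x and Hbb-y overlapped. The mean signal of the 4 erythroid markers was 12.03 to 12.11 in WT-labelled and 11.93 to 12.02 in KO-labelled heads. The part of these cell types in the Hey values was not tested.

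**Figure D3:**
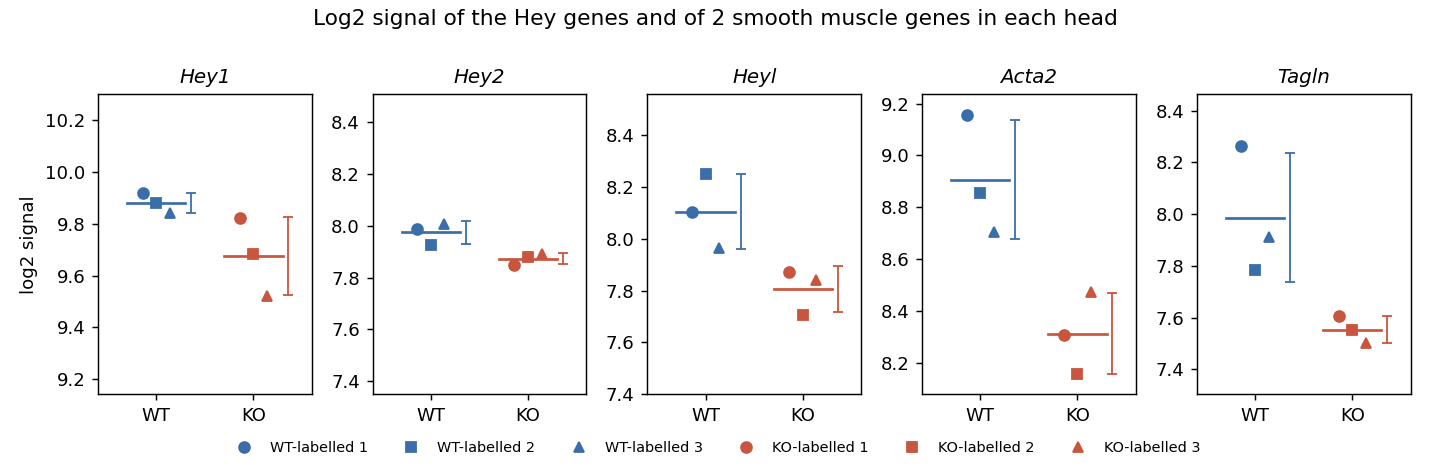
Log2 signal (vertical axis) of the Hey genes Hey1, Hey2 and Heyl and of the smooth muscle genes Acta2 and Tagln in the 3 WT-labelled (blue) and 3 KO-labelled (red) heads, all panels spanning the same number of log2 units; the line is the group mean and the bar ± 1 SD (n = 3). In each panel every red point lies below every blue point, and for Hey1 the highest red point is at 9.82 and the lowest blue point at 9.84.

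The remaining gene of the Hes/Hey list, Nrarp, which encodes a feedback inhibitor of the Notch complex, read 9.68, 9.46 and 9.32 in WT-labelled and 9.39, 9.33 and 9.38 in KO-labelled heads, with overlap (ratio 0.92; limma adjusted p = 0.877). Of the other ligands, the endothelial ligand Dll4 differed by −0.059 and the neuronal ligand Dner by −0.15, with Dner low in KO 3 (7.78, where the other heads read 8.12 to 8.32). Without KO 3 the difference of Dner was −0.0064 and without KO 1 −0.28, and that of Dll4 was −0.0049 without WT 3 and −0.10 without WT 1. Jag2, Dlk1 and Dlk2 differed by −0.070 to +0.026. Notch4, the endothelial receptor, differed by +0.074. Adjusted limma p-values of these genes ran from 0.886 to 0.980.

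Of 9 genes of receptor cleavage, 1 was higher and 8 lower, beside 9515 higher and 12274 lower of all probe sets. The median of these genes was −0.046, and 0 were called. Adam10 (−0.0033), Psen2 (−0.0078) and Aph1a (−0.018) were lower by very little. Aph1b and Aph1c, which encode subunits of gamma-secretase, had the smallest p-values, at −0.16 and −0.13, and as near-identical copies they may share signal. Leaving out a head moved Aph1b to −0.069 (without KO 3), −0.091 (without WT 1) or −0.25 (without KO 1). Of the 5 glycosylation genes, which tune the response to each ligand class, Mfng differed by −0.19 and Lfng by −0.054, and the list's median was −0.054. Without WT 1 these were −0.080 and −0.016, Mfng was −0.097 without KO 3, and Lfng was −0.084 without WT 2 and −0.032 without KO 1.

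Among 12 genes of ligand and receptor trafficking the median was −0.034. Dtx4, a Deltex E3 ligase gene, differed by −0.12 (limma adjusted p = 0.804), and Fbxw7, which marks the active receptor for breakdown, by +0.12 on its brighter probe set and −0.051 on its dim one. Of 14 genes of the nuclear complex and its corepressors, 7 were higher and 7 lower. Rbpj, the DNA-binding core, read 10.46, 10.504 and 10.49 in WT-labelled and 10.46, 10.54 and 10.42 in KO-labelled heads, a ratio of 0.99 with an interval of 0.92 to 1.07. The corepressor gene Tle4 differed by +0.11 and Ctbp1 by −0.083, and neither passed (limma adjusted p = 0.829 for both).

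Proneural factors are what Hes proteins repress. Of the 5 tested, 4 were lower and 1 higher. Neurod1, a factor of differentiating neurons that lies on chromosome 2, read 8.95, 9.27 and 9.07 in WT-labelled and 8.89, 8.52 and 8.50 in KO-labelled heads. KO 1 lay just under WT 1, and the ratio was 0.73, with an interval of 0.61 to 0.86 (limma adjusted p = 0.408). The other pathway genes on chromosome 2 were Dll4 (−0.059), Nrarp (−0.12), Pofut1 (+0.036) and Itch (+0.0053), and a part of position was not tested. Neurog1, which acts before Neurod1, differed by −0.086 (limma adjusted p = 0.887), and by −0.043 without WT 1 and −0.055 without KO 3. Neurog2 differed by +0.043 (limma adjusted p = 0.960).

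**Figure D4:**
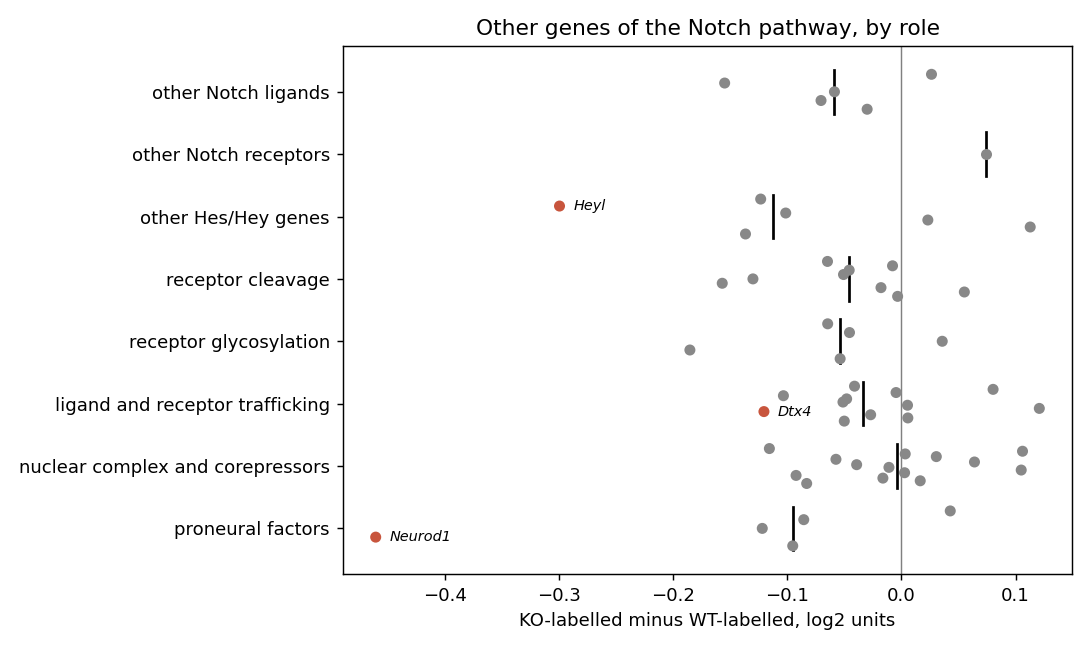
KO-labelled minus WT-labelled difference (horizontal axis, log2 units) of the 57 other pathway genes tested, grouped by role (vertical axis); each point is a gene, the black tick the median of its group, and red marks an unadjusted limma p under 0.05. Heyl, Dtx4 and Neurod1 are the red points, all on the lower side.

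The members also varied between heads of 1 group. Correlations were computed for all 45 pairs of members over the 6 heads, with exact permutation tests, two-sided, adjusted over the 45 pairs. Of these, 29 were positive and 16 negative. After adjustment 0 passed (smallest adjusted p = 0.0625), against 7 at an unadjusted exact permutation p under 0.05. With 6 heads the smallest possible exact permutation p was 0.0014. A single pair at that p reaches 0.0625 after adjustment over 45 pairs, so no pair could pass alone. The count of 0 therefore does not show that the members vary independently. For 44 of the 45 pairs the sign was the same in deviations from the group means, the exception being Hes1 and Hey1. Without the 2 heads farthest from the median of the first gene of each pair, the sign was kept in 35 of 45.

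The 3 receptors had the same order of heads in large part. For Notch1 and Notch3, Pearson's r was 0.97 (exact permutation p = 0.0069, adjusted 0.156) and Spearman's rho 0.94 (exact permutation p = 0.017). For Notch2 and Notch3, r was 0.94 (exact permutation p = 0.011, adjusted 0.167; rho 0.77), and for Notch1 and Notch2 it was 0.90 (exact permutation p = 0.028, adjusted 0.240; rho 0.71). WT 1 and KO 3 were the heads farthest from the median of each of these receptors. Without them r was 0.97 for Notch1 and Notch3, but 0.46 for Notch2 and Notch3 and 0.50 for Notch1 and Notch2, so the relations of Notch2 rest on those heads.

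Jag1 and Hes5 ran in exactly opposite orders, with r = −0.93 (exact permutation p = 0.0014, adjusted 0.0625) and rho = −1.0 (exact permutation p = 0.0028, adjusted 0.125). That order includes near ties: Jag1 read 9.93946 in WT 1 and 9.93995 in KO 3, and Hes5 read 9.91051 in WT 1 and 9.91286 in WT 3. In deviations from the group means r was −0.98, and without WT 2 and KO 1, the heads farthest from the median of Jag1, it was −0.77. KO 1 held the lowest Jag1 and the highest Hes5 signal.

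Dll1 and Hes6, both genes of cells entering neurogenesis, had r = 0.84 (exact permutation p = 0.024, adjusted 0.240; rho 0.83) and 0.57 without WT 3 and KO 3. Dll3 and Hey1 had r = 0.85 (exact permutation p = 0.032, adjusted 0.240; rho 0.83) and 0.79 without WT 1 and KO 3. Hes1 was negatively correlated with Notch3 (r = −0.77), Notch1 (−0.74), Notch2 (−0.63) and Hes5 (−0.50), with exact permutation p-values of 0.074, 0.096, 0.181 and 0.308 before adjustment. Without WT 1 and KO 3 its r with Notch2 was −0.13.

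**Figure D5:**
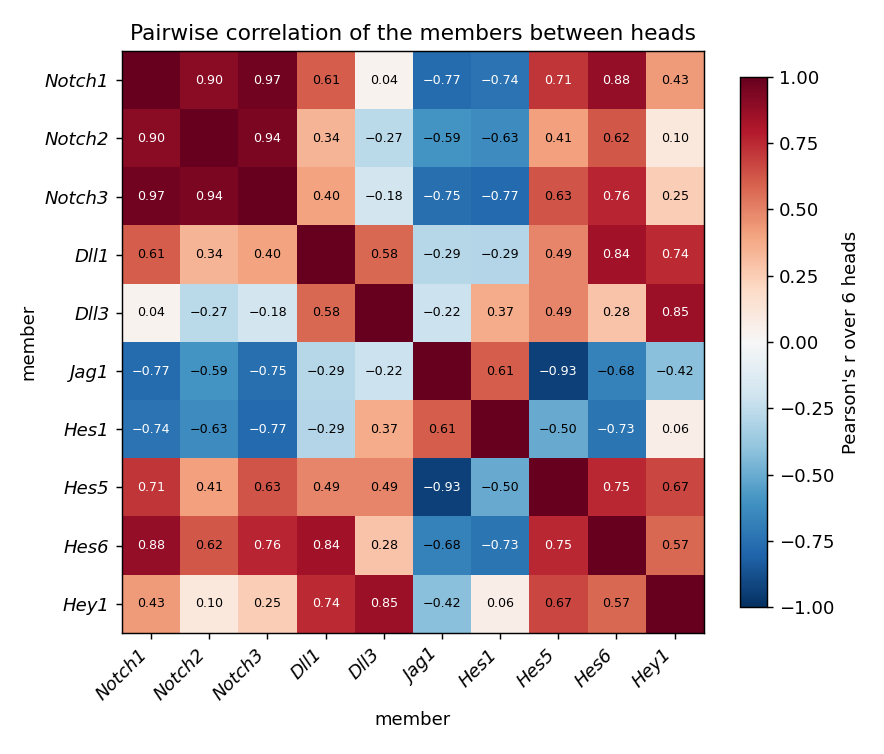
Pearson's r over the 6 heads for each pair of the 10 members (both axes), with red for positive and blue for negative values. The receptors form a block of r from 0.90 to 0.97, and Jag1 and Hes1 are negative against all of them. Of the 45 pairs 0 passed adjustment, which no pair could do alone with 6 heads.

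Markers of mesenchyme and of neurons also varied between heads, and their lowest heads were not all those of the receptors. The mesenchymal gene Prrx1 read 10.49 in WT 1 and 10.80 to 11.19 in the other heads, while Col1a1 of the same list was highest in WT 1 (9.75). Of 7 markers of cranial mesenchyme and neural crest, 3 were higher and 4 lower. Their mean signal was 9.43 to 9.57 in WT-labelled and 9.31 to 9.55 in KO-labelled heads. WT 1 was the lowest WT-labelled head of this list and KO 2 the lowest of all. Of 10 markers of postmitotic neurons, 1 was higher and 9 lower. Their mean signal was 9.92 to 10.18 in WT-labelled and 9.76 to 10.16 in KO-labelled heads. Here WT 3 was the lowest WT-labelled head and KO 3 the lowest of all. KO 3 was also the lowest head for the receptor Notch1 and for Dll1, Hes6, Dll3 and Hey1, while Notch2 and Notch3 were lowest in WT 1. Over 8 neural progenitor markers, 2 higher and 6 lower, the mean signal was 10.66 to 10.81 in WT-labelled and 10.68 to 10.72 in KO-labelled heads. The part of tissue composition in the members' values was not tested.

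Genes with the profile most like a member's were looked for among the brighter 50% of probe sets, by Pearson's r over the 6 heads, as a description. For Notch1 these were Kif13b (0.995), Tbc1d10b (0.994) and the mesenchymal receptor gene Pdgfra (0.99). For Hes5 they were the repressor gene Cic (0.99), the transcription factor gene Bcl11b (0.98) and Mfap4 (0.98), an extracellular matrix gene. For Dll1 they were Anapc5 (0.99), Ppme1 (0.98) and Msl1 (0.98). Among 10894 probe sets searched, 226 had r above 0.9 with Notch1, 97 with Hes5 and 74 with Dll1, so likeness over 6 heads was common.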

How the data were processed

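RNA of 6 heads was read on 1 array each. The authors deposited a table of log2 signals for 35556 probe sets; per the submitters' processing notes the tools were Affymetrix Expression Console and MAS5. Roles and versions of these tools, and the steps of background correction, scaling and summarisation, are not stated there. The values ran from 2.73 to 14.4 with like quantiles in every array, and were used as they are.

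Genes were named from the platform annotation: 21789 probe sets had 1 symbol, 1621 several and 12146 were unnamed. The genotypes were compared by limma 3.58.1 in R 4.3.3 (lmFit, then eBayes with trend, two-sided tests) over all probe sets with 1 symbol, with no brightness filter, and the fit was tested on simulated data. The number of arrays limits the precision. All members are named. Of each pathway list up to 2 genes with the smallest unadjusted p are named by rule, and the others named (Hes and Hey genes, ligands, Rbpj, Neurog2, Acta2, Tagln, Prrx1 and other markers) were chosen after their values were seen. Members and lists were chosen with earlier results of these data known. Promoter sequences are RefSeq's (GRCm38.p6). Alternatives were other normalizations, offsets, filters, variance models, covariates and each head left out. Figures were drawn with matplotlib 3.10.9.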

Additional observations from a re-analysis of the deposited data

How the results depend on the processing

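Under 13 alternatives that keep all heads and with each head left out in turn, 0 members and 0 pathway genes passed the adjusted threshold in any of them. The Hey1 difference ran from −0.28 to −0.13, and its adjusted limma p from 0.442 to 0.9999. In an ordinary linear model 0 members had an unadjusted p under 0.05. With heads left out, the count of such members ran from 0 to 1, that of lower pathway genes from 2 to 7 and that of higher ones from 0 to 1 (1 also with quantile normalization). Over the whole table, 2 genes were called with 1 probe set a gene (Mir9-1 and Caprin2), 9 probe sets of a repeated gene family with all probe sets, and 0 to 8 with a head left out (8 without KO 1, 1 without WT 1).

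The sign changed for 7 members with small differences. Jag1 was at −0.0053 with quantile normalization, −0.025 with median centring and −0.016 with Xist signal as a covariate. With the Xist covariate Hes6 was at +0.054. Median centring moved every difference by −0.027, which is larger in size than the differences of Jag1, Notch1, Notch3 and Dll1 (−0.023). This put Notch1 at −0.027 and Notch3 at −0.013. With heads left out, the ranges were −0.10 to 0.11 for Notch1, −0.0054 to 0.064 for Notch2, −0.047 to 0.058 for Notch3, −0.040 to 0.0060 for Dll1, −0.035 to 0.060 for Jag1, −0.15 to 0.0091 for Hes1 and −0.11 to 0.056 for Hes6. The cause of the other sign changes was not tested. With the replicate number as a block, 0 members were called, 1 had an unadjusted p under 0.05 and the members' median was −0.027. Deviations from the group means had r of −0.14, −0.14 and −0.29 between same-numbered heads, and −0.12 to 0.28 between other-numbered ones. These values cannot decide whether same-numbered heads form pairs, because the deviations within a group of 3 cancel out.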

Other observations

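Of the other pathway genes, 7 had more than 1 probe set with their symbol. For Psenen, Aph1a and Hdac1 the differences of both probe sets were within 0.01 log2 units of each other. For Rbpj and Neurl1b the dimmer and the brighter probe set both had differences below 0, and for Maml2 both lay above 0. Fbxw7 was the only one of the 7 whose probe sets differed in direction, the dim one reading 5.20 on average over the 6 heads.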
